A study of Sus scrofa with 36 samples.

Results

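Adipocyte and lipid storage genes were examined in the adrenal glands of growing pigs. The set held 10 genes, FABP4, ADIPOQ, LEP, PLIN1, PLIN2, PPARG, LIPE, LPL, SCD and FASN, of 8922 named genes in the deposited table. They were found by their name in the array files or by their RefSeq transcript. They had 58 probes on the array, of which 55 were in the table and 51 were well above background on all 36 arrays.

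The study asked how heat stress (HS) changes gene expression in pigs of breeds that differ in origin, relative to thermoneutral conditions (TN). It used 36 castrated male pigs, 12 Creole (CR), 12 Large White (LW) and 12 F1 crosses of both breeds, with 1 array per pig. The pigs entered a climatic room at 11 weeks of age and had 10 days of adaptation at 24 °C. In each breed 6 TN pigs were slaughtered at 24 °C before the temperature was raised, and 6 HS pigs after 4 or 5 days at the higher temperature, which the sample labels give as 30 °C and the growth protocol as 32 °C. Each breed was drawn from blocks of littermates, so the p-values measure the spread between pigs that include siblings. The 12 pigs of a breed are thus not independent of one another. Each litter and each pen held pigs of 1 breed, and the labels name neither, so litter and pen cannot be told apart from breed here. Day of slaughter differed between TN and HS and cannot be told apart from temperature.

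The adrenal gland is made of a steroid-producing cortex around a medulla of catecholamine-secreting chromaffin cells, within a capsule that is embedded in fat. Adipocytes secrete adiponectin and leptin, take up fatty acids, and store triglyceride in droplets coated with perilipins, from which lipases release fatty acids again. Cortical cells also hold lipid droplets, filled mostly with cholesteryl esters for steroid synthesis, so part of this gene set is in use in adipocytes and cortical cells alike. In RNA of a whole gland, fewer cells of a type and less RNA per cell cannot be told apart. Neither can RNA of the gland itself and of any fat left on its capsule.

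Between 42436 and 48060 probes were well above background per array, and pairs of arrays correlated at 0.982 to 0.996 over all probes. The arrays lay on 5 slides (slide 1 with 4 arrays, slides 2 to 5 with 8), and each slide held pigs of all 3 breeds. The chaperone gene HSPH1 read 12.7 on the log2 scale in CR HS replicate 6, against a median of 11.8 in its group and a highest value of 12.3 in the F1 HS or LW HS pigs. The differences of the 10 genes from CR pigs that passed on a brightest probe are therefore also given without that pig, and those of other genes are named where the call changed. All levels are log2 intensities of the deposited table, differences are on the same scale, and q is limma's p-value after Benjamini-Hochberg adjustment over all 45348 probes. In fits on other sets of probes or on means over a gene's probes, the adjustment ran over what that fit held. The brightest probe of a gene stands for the gene unless another is named, and the others are numbered by falling mean level.

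By breed, 27 of the 55 member probes passed the F test at a q of 0.05, against 10.6% of all probes. They were all 10 probes of ADIPOQ, all 8 of FABP4, both of PLIN1, 5 of 6 of LPL and 2 of 4 of FASN. No probe of LEP, PLIN2, PPARG, LIPE or SCD passed. ADIPOQ, FABP4 and PLIN1 were lowest in LW pigs, whereas LPL was lowest in CR pigs. Between LW and CR pigs, 22 member probes were lower in LW (5.5% of all probes) and 7 were higher (5.98% of all probes), and the median difference of the 55 was -0.20, against 0.00 over all probes.

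ADIPOQ encodes adiponectin, a hormone that adipocytes secrete. In CR pigs its lowest, median and highest levels were 8.44, 10.04 and 10.50 at TN and 9.19, 9.67 and 10.03 at HS. In F1 pigs they were 8.74, 9.08 and 10.30 at TN and 7.87, 9.53 and 10.13 at HS. In LW pigs they were 7.82, 8.27 and 8.78 at TN and 7.53, 7.91 and 8.20 at HS. All 12 LW pigs lay below the CR mean. A single CR pig, TN replicate 2 at 8.44, reached into the LW range, and the F1 pigs spread over the ranges of both parents. The mean was 9.71 ± 0.55 (SD, n = 12) in CR, 9.32 ± 0.69 in F1 and 8.08 ± 0.38 in LW. LW minus CR was -1.62 ± 0.22 (SE), a 3.08-fold lower level (95% interval 2.27 to 4.18-fold, q = 3.41e-06). It was -1.60 without CR HS replicate 6. The ADIPOQ probe that carries the stretch below, number 8, differed by -0.99 between the same breeds (q = 2.02e-05). Probe 7 holds the same sequence and differed by -0.69 (q = 3.28e-05). It is shown, like the other 60-base probes, because the value of a gene on this array is the signal of such a stretch.
ADIPOQ probe 8: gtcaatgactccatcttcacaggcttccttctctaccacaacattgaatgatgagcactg

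FABP4 is the fatty acid-binding protein that adipocytes hold in large amounts and that macrophages and some capillaries also make. Its lowest, median and highest levels in CR pigs were 10.90, 11.96 and 12.41 at TN and 11.32, 11.53 and 12.12 at HS. In F1 pigs they were 10.99, 11.22 and 12.05 at TN and 10.24, 11.63 and 12.20 at HS. In LW pigs they were 10.22, 10.56 and 11.08 at TN and 9.77, 10.29 and 10.72 at HS. The CR pig that was lowest for ADIPOQ, TN replicate 2, was also the lowest CR pig here and the only one inside the LW range. The breed means were 11.76 ± 0.44 in CR, 11.40 ± 0.57 in F1 and 10.43 ± 0.38 in LW (SD, n = 12 each). The difference LW minus CR was -1.33 ± 0.18 (SE), a 2.52-fold lower level (1.95 to 3.25-fold, q = 5.32e-06), and -1.34 without CR HS replicate 6. Over the 8 probes the difference ran from -1.48 to -0.53. The probe with the smallest value, number 8, was well above background on 17 of 36 arrays. Probe 2 was the only member probe without overlap between the breeds, with LW pigs at 9.07 to 10.15 and CR pigs at 10.17 to 11.95. Of all probes, 0.26% had no overlap between LW and CR pigs.
FABP4 probe 4: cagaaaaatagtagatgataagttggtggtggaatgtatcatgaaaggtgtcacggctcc

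PLIN1 encodes perilipin 1, the coat protein that gates lipolysis on the droplets of adipocytes and of steroid-producing cells. In CR pigs the lowest, median and highest levels were 7.74, 8.45 and 8.69 at TN and 7.85, 8.25 and 8.32 at HS. They were 7.32, 7.77 and 8.54 in F1 pigs at TN and 7.41, 8.04 and 8.90 at HS. They were 7.09, 7.38 and 7.91 in LW pigs at TN and 7.10, 7.32 and 7.66 at HS. The 2 lowest CR pigs lay below the highest LW pig, and the lower of them was again TN replicate 2. Between LW and CR the difference was -0.90 ± 0.14 (SE), 1.87-fold lower (1.53 to 2.28-fold, q = 3.78e-05), and -0.91 without CR HS replicate 6. The other PLIN1 probe differed by -0.86 (q = 2.01e-05).

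**Figure D1:**
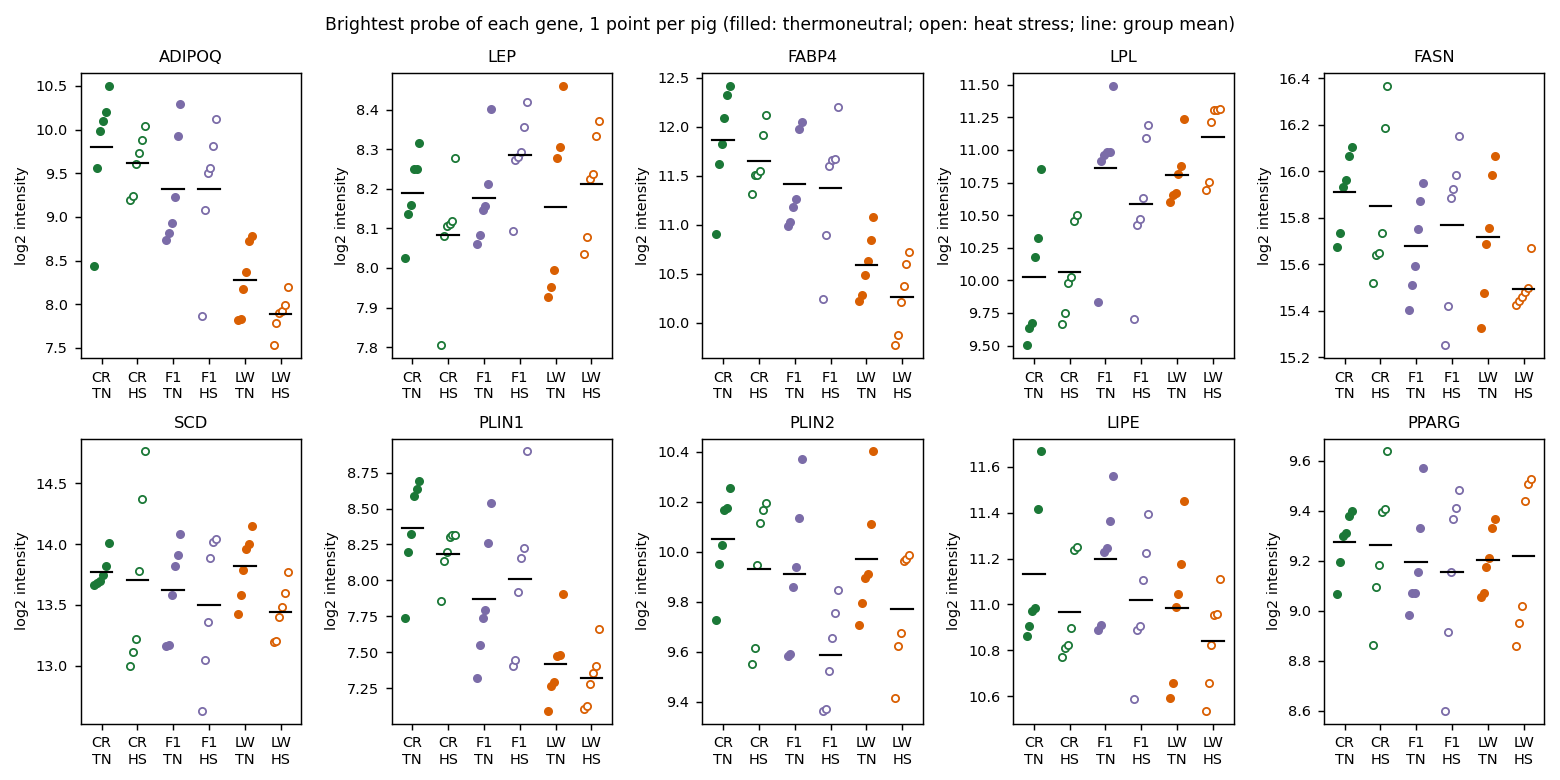
Levels of the brightest probe of each of the 10 genes on the log2 scale (vertical axes, each with its own range), 1 point per pig in the 6 groups of breed and temperature, with TN pigs filled, HS pigs open and a line at the group mean. The LW pigs sit at the bottom for ADIPOQ (7.53 to 8.78), FABP4 (9.77 to 11.08) and PLIN1 (7.09 to 7.91), and the CR pigs sit at the bottom for LPL (9.50 to 10.86).

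The F1 pigs differed from the LW pigs in these genes. Between F1 and LW pigs, 20 member probes were higher in F1, all 10 of ADIPOQ, all 8 of FABP4 and both of PLIN1, against 0.684% of all probes higher and 0.732% lower. ADIPOQ was higher by 1.24 ± 0.22 (2.36-fold, q = 0.0020), FABP4 by 0.97 ± 0.18 (1.96-fold, q = 0.0041) and PLIN1 by 0.57 ± 0.14 (1.48-fold, q = 0.030). Between F1 and CR pigs none of these 20 probes passed by limma and 7 had an unadjusted p under 0.05, as did 8106 of all 45348 probes. The differences there were -0.38 (95% interval -0.82 to 0.06, q = 0.36) for ADIPOQ, -0.36 (-0.73 to 0.01, q = 0.30) for FABP4 and -0.34 (-0.62 to -0.05, q = 0.19) for PLIN1. The call for FABP4 was lost without slide 4 (0.75, q = 0.080) and that for PLIN1 without slide 1, 2 or 4. The call for PLIN1 between F1 and LW also rested on single pigs. It was lost without F1 HS replicate 1 (q = 0.057), F1 HS replicate 2 (q = 0.052), F1 TN replicate 1 (q = 0.060), LW TN replicate 2 (q = 0.052) or LW HS replicate 2 (q = 0.054), at differences of 0.48 to 0.55. Without F1 HS replicate 2, PLIN1 passed between F1 and CR (-0.43, q = 0.047).

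LPL is the lipase on capillary walls that frees fatty acids from circulating lipoproteins, and it ran in the opposite direction. Its lowest, median and highest levels in CR pigs were 9.50, 9.92 and 10.86 at TN and 9.66, 10.001 and 10.50 at HS. In F1 pigs they were 9.84, 10.97 and 11.49 at TN and 9.70, 10.55 and 11.19 at HS. In LW pigs they were 10.60, 10.74 and 11.24 at TN and 10.70, 11.26 and 11.32 at HS. All 12 LW pigs were above the CR mean, only the highest CR pig entered the LW range, and 1 F1 pig at each temperature lay in the lower part of the CR range. The breed means were 10.05 ± 0.42 in CR, 10.72 ± 0.54 in F1 and 10.95 ± 0.30 in LW (SD, n = 12 each). In LW pigs it was higher than in CR pigs by 0.91 ± 0.17 (SE), or 1.88-fold (1.48 to 2.39-fold, q = 0.00040), and 0.95 without CR HS replicate 6. All 6 probes were higher in LW, from 0.43 for probe 5 (q = 0.044) to 1.34 for probe 2 (2.54-fold, q = 2.7e-05). Probe 6, shown here, differed by 0.44 (q = 0.0070).
LPL probe 6: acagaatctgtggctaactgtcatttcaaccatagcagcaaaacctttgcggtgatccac

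For LPL the F1 pigs differed from the CR pigs. Between F1 and CR pigs, 4 member probes were higher in F1, all of LPL, against 2.25% of all probes higher and 1.73% lower. The brightest was higher by 0.68 ± 0.17 (1.60-fold, q = 0.018), and by 0.72 without CR HS replicate 6 (q = 0.014). F1 minus LW was -0.23 (-0.58 to 0.12, q = 0.64), and no LPL probe passed there. By limma 3 of 6 had an unadjusted p under 0.05, as did 5950 of all 45348 probes. The call between F1 and CR was lost without slide 2 (0.51, q = 0.23), slide 3 (0.66, q = 0.066) or slide 4 (0.68, q = 0.076).

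**Figure D2:**
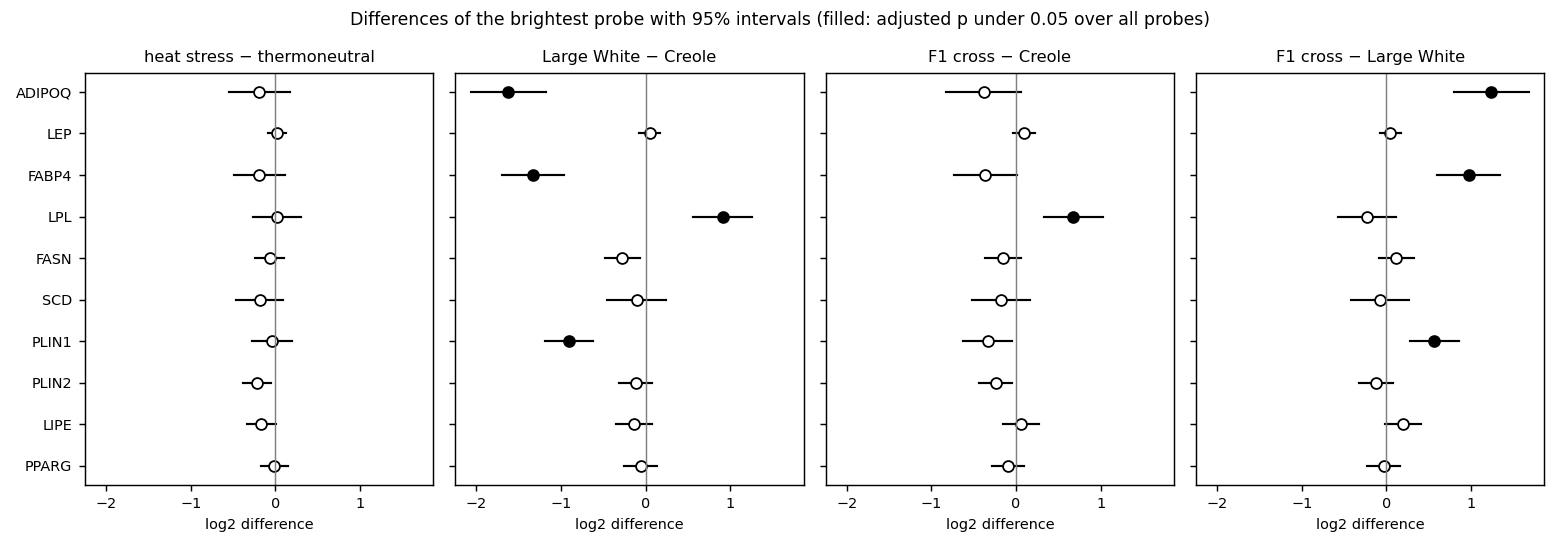
Differences of the brightest probe of each gene on the log2 scale (horizontal axes) with 95% intervals, for HS minus TN, LW minus CR, F1 minus CR and F1 minus LW, filled where q was under 0.05. ADIPOQ, FABP4 and PLIN1 were lower and LPL higher in LW than in CR, ADIPOQ, FABP4 and PLIN1 were higher in F1 than in LW, and no gene passed between HS and TN.

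Slide held several breeds, so the breed differences were also computed within each slide. Slide 1 held 4 arrays and could not be fitted. Within slides 2, 3, 4 and 5, LW minus CR for ADIPOQ was -1.14, -1.66, -1.66 and -1.19, and for FABP4 it was -0.98, -1.40, -1.64 and -0.64. PLIN1 gave -0.71, -1.16, -1.01 and -0.40. LPL gave 1.63, 0.57, 0.85 and 1.09. The sign was the same on all 4 slides for each of these genes. F1 minus LW was less even, at 1.81, -0.02, 1.41 and 0.89 for ADIPOQ and 1.25, -0.02, 1.56 and 0.40 for FABP4 on the same slides. For PLIN1 it was 1.01, 0.03, 0.72 and 0.03, near 0 on 2 of the 4 slides.

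The other adipocyte hormone, leptin (LEP), did not pass on its brightest probe. Its levels ran from 7.80 to 8.32 in CR, from 8.06 to 8.42 in F1 and from 7.93 to 8.46 in LW pigs. The ranges of the 3 breeds overlapped almost wholly, and LW minus CR was 0.05 (-0.08 to 0.17, q = 0.71). LEP probe 3 passed between LW and CR with 0.17 (q = 0.043), opposite in sign to ADIPOQ. Its F test over the 3 breeds did not pass. Probe 3 was well above background on 35 of 36 arrays, and a LEP probe of the same sequence that is outside the table on 6 of 36. LEP probes 1 and 2 also hold 1 sequence, and they correlated at 0.65. Of the adipocyte markers ADIPOQ, LEP, PLIN1 and FABP4, therefore, 3 of 4 differed between LW and CR on the brightest probe, where 11.7% of all named genes did. Of all 10 members, 4 passed on the brightest probe, 3 lower and 1 higher in LW.

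FASN, the synthase that builds palmitate from malonyl-CoA, passed on some of its probes. The brightest ran from 15.52 to 16.37 in CR, from 15.25 to 16.15 in F1 and from 15.33 to 16.07 in LW pigs, with LW minus CR at -0.28 (-0.49 to -0.07, q = 0.080). Probes 2 and 3 hold the same sequence, correlated at 0.99 over the 36 arrays and differed by -0.62 (1.54-fold, q = 0.0035) and -0.61 (1.52-fold, q = 0.0040). The 2 probes that passed are thus a repeat of 1 sequence. The brightest probe passed without LW TN replicate 6 (-0.32, q = 0.041).

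SCD, the desaturase that makes oleate from stearate, was measured by 11 probes and none passed by breed. Its brightest probe ran from 12.9996 to 14.76 in CR, from 12.63 to 14.08 in F1 and from 13.20 to 14.15 in LW pigs. LW minus CR was -0.11 (-0.45 to 0.24, q = 0.77). Both the lowest and the highest CR pig were in the HS group.
SCD probe 11: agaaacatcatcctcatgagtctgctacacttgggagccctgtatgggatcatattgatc

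The droplet coat PLIN2 is found in most cells that hold lipid droplets, and LIPE is the hormone-sensitive lipase, which cleaves cholesteryl esters in steroid-producing cells as well as glycerides in adipocytes. PLIN2 ran from 9.55 to 10.26 in CR, from 9.36 to 10.37 in F1 and from 9.42 to 10.40 in LW pigs. LIPE ran from 10.77 to 11.67, from 10.59 to 11.56 and from 10.54 to 11.45 in the same order. The breeds overlapped in both genes. Between LW and CR the difference was -0.12 (-0.32 to 0.08, q = 0.50) for PLIN2 and -0.14 (-0.35 to 0.08, q = 0.47) for LIPE. F1 minus CR was -0.24 for PLIN2 (-0.44 to -0.04, q = 0.17).

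PPARG, the nuclear receptor that drives adipocyte differentiation, ran from 8.86 to 9.64 in CR, from 8.60 to 9.57 in F1 and from 8.86 to 9.53 in LW pigs. LW minus CR was -0.06 (-0.25 to 0.13, q = 0.77), and across its 5 probes it lay between -0.11 and 0.05. PPARG probes 4 and 5 hold the same sequence, yet they correlated at only 0.19 over the 36 arrays. Probes 1 and 2 share the 45 bases in capitals.
PPARG probe 1: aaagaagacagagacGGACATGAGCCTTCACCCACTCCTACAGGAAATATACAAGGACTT
PPARG probe 2: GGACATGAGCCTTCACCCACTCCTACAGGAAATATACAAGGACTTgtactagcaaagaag

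**Figure D3:**
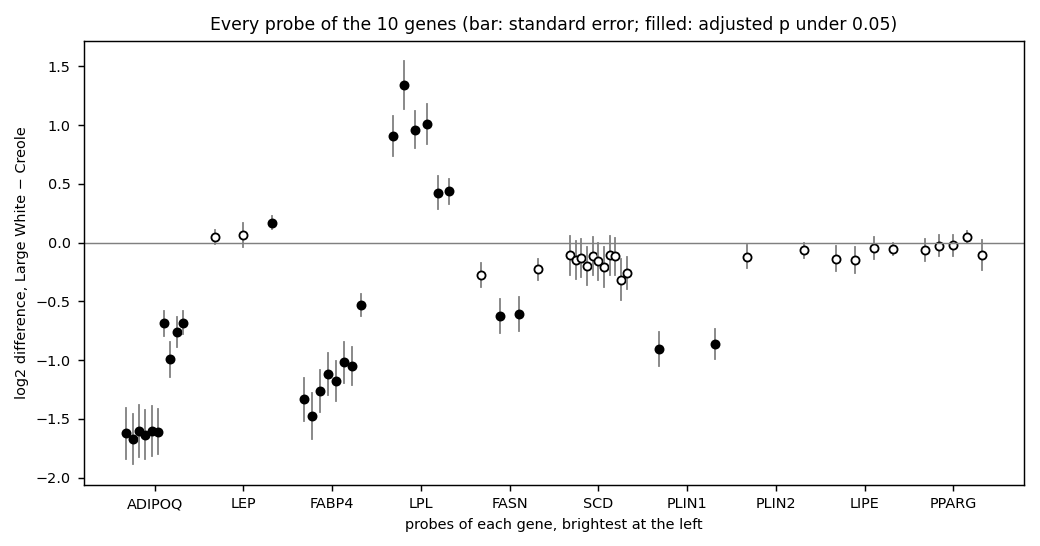
LW minus CR on the log2 scale (vertical axis) for all 55 probes of the 10 genes, brightest at the left within each gene, with standard errors, filled where q was under 0.05. All probes of ADIPOQ (-1.67 to -0.68), FABP4 (-1.48 to -0.53) and PLIN1 (-0.90 to -0.86) are filled below 0 and all 6 of LPL (0.43 to 1.34) above 0, while those of PLIN2, LIPE, PPARG and SCD are open.

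By temperature, 0 of the 55 member probes passed, against 0.911% of all probes. By limma, 5 of the 55 had an unadjusted p under 0.05, as did 6121 of all 45348 probes. The member estimates were mostly below 0 (44 of 55, median -0.14), against 22675 of all 45348 probes and a median of 0.00 over all probes. Probes of 1 gene are not independent, and all 11 of SCD, 10 of ADIPOQ, 8 of FABP4 and 4 of LIPE were below 0. On the brightest probes 8 of the 10 genes were below 0. The lowest q was 0.13, for FABP4 probe 8 (-0.24), which was not above background on all arrays. HS minus TN was -0.19 (-0.55 to 0.17, q = 0.70) for ADIPOQ and -0.19 (-0.49 to 0.11, q = 0.63) for FABP4. It was -0.04 (-0.28 to 0.19, q = 0.92) for PLIN1 and 0.02 (-0.27 to 0.30, q = 0.98) for LPL.

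Of the brightest probes of the 10 genes, that of PLIN2 had the lowest q. TN pigs ran from 9.58 to 10.40 and HS pigs from 9.36 to 10.20, and 14 of 18 HS pigs lay below the TN mean. HS minus TN was -0.21 ± 0.08 (SE; -0.38 to -0.05, unadjusted p = 0.011, q = 0.19). The 4 LIPE probes gave -0.17, -0.20, -0.20 and -0.10, with q from 0.20 to 0.41. The first 2 hold the same sequence and share a run of 18 bases with 1 probe that is not named LIPE. The 11 SCD probes gave -0.19 to -0.12, with a lowest q of 0.579. LEP (0.02), PPARG (-0.01) and FASN (-0.06) were near 0 on their brightest probes.

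The response to temperature was also estimated within each breed. It passed for 0 member probes in CR, F1 or LW pigs, where 0%, 0% and 0.011% of all probes passed. In the same order it had an unadjusted p under 0.05 by limma for 3, 3 and 1 member probes and for 2171, 5592 and 2852 of all 45348 probes. For ADIPOQ it was -0.18 ± 0.31 in CR, 0.00 ± 0.31 in F1 and -0.39 ± 0.31 in LW pigs, and for LPL it was 0.03 ± 0.24, -0.28 ± 0.24 and 0.29 ± 0.24 (SE, 6 TN and 6 HS pigs per breed). The interaction of breed and temperature passed for 0 of the 55 member probes and for 0% of all probes. At an unadjusted p under 0.05 limma's F test gave 1 member probe, LIPE probe 4 (q = 0.98), and 1914 of all probes.

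ADIPOQ also varied between pigs of the same breed and temperature, and the other members were set against that variation in a fit with the 6 group means and the ADIPOQ level. In all, 31 of 45338 probes not named ADIPOQ passed and all of them rose with ADIPOQ (0.0684% of probes). Among them were 9 of the 45 other member probes, 7 of 8 of FABP4 and both of PLIN1. FABP4 changed by 0.75 ± 0.07 per unit of ADIPOQ (q = 1.7e-08). The deviations from the group means correlated at r = 0.89 over the 36 pigs (Spearman's rho 0.85, permutation p = 1e-05 for both, the smallest that the permutations could give). PLIN1 correlated at r = 0.84 (rho 0.83, with the same permutation p). Pigs share slides and litters, and the members were compared in 9 such relations.

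2 pigs were farthest from their group mean in ADIPOQ, F1 HS replicate 4 (-1.46) and CR TN replicate 2 (-1.36), and FABP4 deviated by -1.14 and -0.96 in them. Without both, r was 0.84 for FABP4 and 0.82 for PLIN1, and the number of probes that passed was 14 instead of 31, again with 7 of FABP4 and both of PLIN1. Within CR, F1 and LW pigs, r was 0.89, 0.95 and 0.76 for FABP4, and 0.88, 0.85 and 0.75 for PLIN1. Within slides 2, 3, 4 and 5 it was 0.95, 0.93, 0.77 and 0.81 for FABP4, and 0.90, 0.88, 0.75 and 0.57 for PLIN1.

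No probe of the other 7 members passed in that fit. LPL, whose difference between LW and CR was of the size of that of PLIN1, correlated with ADIPOQ at r = 0.02, with 0.64 in CR, -0.37 in F1 and -0.05 in LW pigs. LEP gave 0.06, PLIN2 -0.32, PPARG 0.31, LIPE 0.33, SCD 0.34 and FASN 0.22. Without the 2 farthest pigs, LIPE fell to 0.15 and SCD to 0.23.

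**Figure D4:**
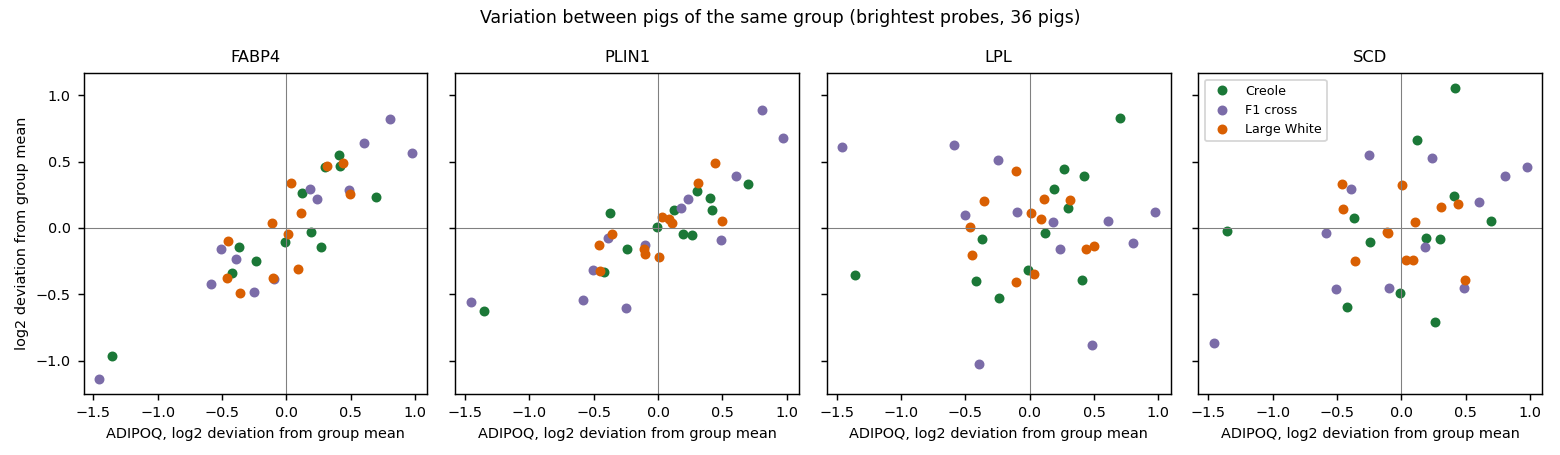
Deviation of FABP4, PLIN1, LPL and SCD (vertical axes) from the group mean against that of ADIPOQ (horizontal axes), log2 scale, 1 point per pig (n = 36) coloured by breed. FABP4 (r = 0.89) and PLIN1 (r = 0.84) follow a line through 0, while LPL (r = 0.02) and SCD (r = 0.34) are scattered.

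Besides the probes named for the 10 genes, 22 more passed. They were 14 of 20 probes of CA3, all 3 of CIDEC, the single one of UCP3 and 4 without a gene name, whose genes are not known here. By the correlation of a gene's best probe with ADIPOQ, the 10 nearest named genes were CIDEC (r = 0.84), UCP3 (0.78), CA3 (0.73), MYOC (0.63), CD36 (0.63), PZP (0.61), SMUG1 (0.59), BACE2 (0.57), IGFBP6 (0.56) and SLC7A10 (0.54). The calls of CA3 and UCP3 were lost without the 2 farthest pigs, and the 3 of CIDEC were kept. Between LW and CR pigs those probes of CIDEC (-0.59, q = 0.043), UCP3 (-0.53, q = 0.015), CA3 (-1.36, q = 0.00025), MYOC (-1.12, q = 6.46e-05), CD36 (-0.69, q = 5.1e-06) and PZP (-0.29, q = 0.020) were lower, as ADIPOQ was, and IGFBP6 was higher (0.49, q = 0.0027).

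The other genes of lipid storage were taken from 5 lists, by the brightest probe of each gene. Over all 8922 named genes, 10.7% passed the F test by breed, 11.7% passed between LW and CR, and the median of LW minus CR was 0.00. Of 14 droplet and lipolysis genes measured, 4 passed by breed. CIDEA, a droplet protein of thermogenic fat, was lower in LW than in CR (-0.59, q = 8.26e-05), as was the lysosomal lipase LIPA (-0.40, q = 9.69e-05). PNPLA3, a lipase related to adipose triglyceride lipase, was lower in F1 than in LW (-1.01, q = 0.0026), and the glycerol channel AQP7 was higher (0.50, q = 0.022). CIDEC, which enlarges droplets in white fat, was lower in LW than in CR but did not pass the F test (q = 0.098), and its call was lost without CR HS replicate 6 (-0.55, q = 0.068). The lipases PNPLA2 (-0.13, q = 0.20) and MGLL (-0.04, q = 0.79) did not pass.

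Of 19 genes of fatty acid and triglyceride synthesis, 4 passed by breed and 5 were lower in LW than in CR, with a median difference of -0.26. The desaturases FADS1 (-0.50, q = 0.00037) and FADS2 (-0.28, q = 0.041), GPD1, which supplies glycerol phosphate (-0.37, q = 0.00095), and DGAT2, which completes triglyceride synthesis (-0.62, q = 0.010), were among them. The fifth was the malic enzyme ME1 (-0.30, q = 0.039), which did not pass the F test (q = 0.094). The call of FADS2 was lost without CR HS replicate 6 (-0.26, q = 0.070). ACACA, ACLY and DGAT1 lay between -0.08 and -0.01 and did not pass.

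Of 8 genes of fatty acid uptake and binding, 4 passed by breed, in both directions. The fatty acid translocase CD36 was lower in LW than in CR (-0.79, q = 3.38e-06), as was the caveolar protein CAV1 (-0.43, q = 0.0089). FABP5, the epidermal fatty acid-binding protein and a close relative of FABP4, was higher in LW (0.99, q = 6.95e-05), as was the lipoprotein receptor VLDLR (0.33, q = 0.0058). FABP3, the heart fatty acid-binding protein, was lower in LW (-0.55, q = 0.048) but did not pass the F test (q = 0.073). FABP4 and FABP5 thus differed in opposite directions between the same pigs.

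Of 13 adipogenic regulators, adipokines and receptors, NAMPT alone passed by breed, lower in F1 than in CR (-0.21, q = 0.019). CEBPB, a regulator of early adipocyte differentiation, was lower in LW than in CR (-0.29, q = 0.042) but did not pass the F test (q = 0.075). Between the same breeds CEBPA (-0.10, q = 0.59) did not pass, nor did the adiponectin receptors ADIPOR1 (-0.10, q = 0.36) and ADIPOR2 (-0.14, q = 0.12). Of 3 thermogenic genes, UCP3 passed (-0.53 between LW and CR, q = 0.015). Over the 5 lists, 14 of 57 measured genes passed by breed, and 0 passed by temperature with limma, where 6 had an unadjusted p under 0.05, as did 6121 of all 45348 probes. Over all named genes 0.953% passed by temperature.

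**Figure D5:**
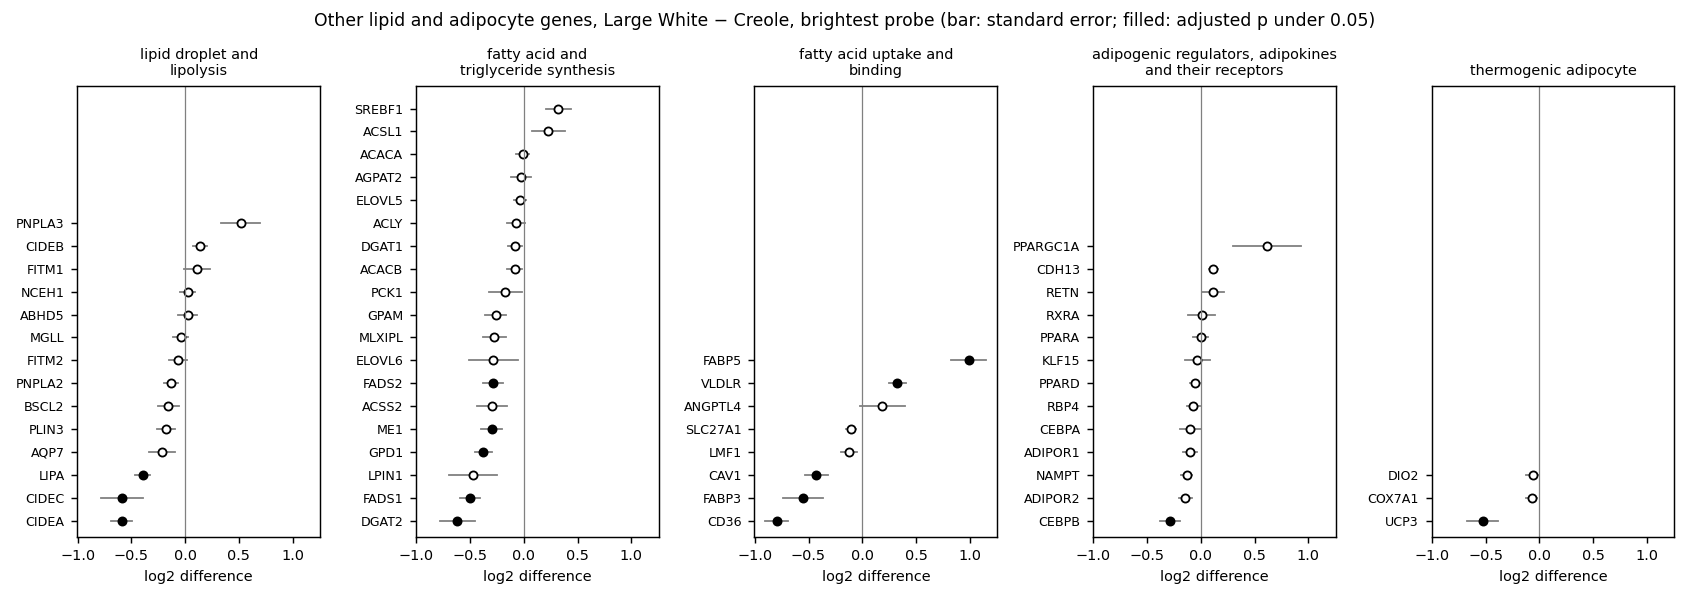
LW minus CR on the log2 scale (horizontal axes) with standard errors for the brightest probe of each measured gene of the 5 lists, filled where q was under 0.05. CD36 (-0.79) and DGAT2 (-0.62) lie farthest to the left among the genes that passed, and FABP5 (0.99) lies farthest to the right.

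Some markers of the other cells of the gland passed between LW and CR, where 11.7% of all named genes did. Of the cortex markers, 2 of 7 were lower in LW than in CR, HSD3B1 (-0.78) and STAR (-0.34). Of the chromaffin markers 3 of 4 were higher, CHGA (0.16), CHGB (0.53) and PNMT (0.38), of the endothelial markers 1 of 5 (KDR, 0.68), of the macrophage markers 1 of 4 (C1QA, 0.52, joined by C1QB without CR HS replicate 6, 0.38, q = 0.044), and of the fibroblast and red blood cell markers 0 of 4 and 0 of 2 (by limma, with 2 and 0 at an unadjusted p under 0.05). Between F1 and LW pigs, where 1.32% of all named genes passed, 3 of 4 macrophage markers were lower in F1, CD163 (-0.57), C1QA (-0.66) and C1QB (-0.56), and the cortex marker HSD3B1 was higher (0.47, q = 0.020). Between F1 and CR pigs, where 3.88% of all named genes passed, KDR (0.50, q = 0.020) and CHGB (0.36, q = 0.020) were higher in F1 and STAR was lower (-0.27, q = 0.036), a call that was lost without CR HS replicate 6 (q = 0.0505). A summed intensity follows its brightest marker most, such as FABP4 among the adipocyte genes and CHGA among the chromaffin markers. It does not show that the markers of a set moved together. The log2 of the summed intensity of ADIPOQ, LEP, PLIN1 and FABP4 ran from 11.43 to 12.83 in CR, 10.91 to 12.68 in F1 and 10.59 to 11.59 in LW pigs.

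In the order CR, F1 and LW, that of the cortex markers ran from 19.88 to 20.07, 19.69 to 20.02 and 19.72 to 19.96, and that of the chromaffin markers from 18.93 to 19.34, 19.19 to 19.57 and 18.99 to 19.53. For the macrophage markers it ran from 14.02 to 15.07, 13.65 to 14.91 and 14.20 to 15.42, and for the endothelial markers from 13.96 to 14.36, 13.94 to 14.40 and 14.02 to 14.38. For the fibroblast markers it ran from 15.64 to 16.62, 15.72 to 16.54 and 15.69 to 16.49, and for the red blood cell markers from 11.91 to 13.03, 11.77 to 12.57 and 11.85 to 12.98. By temperature 1 marker passed, the cortical regulator NR5A1 (-0.25, q = 0.025). Each marker was well above background on all 36 arrays. Their part in the breed differences of the adipocyte genes was not tested.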

How the data were processed

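RNA of the adrenal glands of 36 pigs was labelled with Cy3 and hybridised to a porcine 1-colour Agilent array, 1 array per pig. The deposited scanner files, made by the authors with Feature Extraction 10.10.1.1, give spot intensities before any scaling between arrays. The values used here are those of the authors' own table, log2 of the median pixel intensity after quantile normalization, for 45348 probes with 93 missing values and 0 columns of other samples.

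Groups came from the labels, and replicate numbers, given in accession order, only name the pigs. Breed and temperature were fitted to all probes at once with limma 3.58.1 (R 4.3.3, statmod 1.5.0; lmFit and eBayes), with Benjamini-Hochberg adjustment and a threshold of 0.05. Other fits added the interaction, a temperature term per breed, or the 6 groups and the brightest ADIPOQ probe. Correlations used 100000 permutations within groups. The fits were tested on simulated data. The members and lists were chosen with earlier results of these data known. List genes are named where they passed by breed or temperature, at most 6 a list, and those named without passing were chosen after their values were seen. Pen, slaughter day and parents, random effects of the study's model, were not used here, and no coordinates are given here. Not every relation between probe sequences is reported here. The number of arrays limits the precision.

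Alternatives were the scanner intensities renormalized in 3 ways (median intensity, normexp with an offset of 50, processed signal at its 75th percentile), probes above background on all arrays, the mean over a gene's probes, slide as a fixed or random block, a variance trend, no breed term, and each slide or pig left out.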

Additional observations from a re-analysis of the deposited data

Results flagged for a closer look

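For the brightest probe of each gene, the 6 groups were searched for a pig far from the other 5, which gave 60 groups tested. In 2 of them the gap to the nearest pig took up more of the group's range than Dixon's 95% critical value for 6 samples, and chance alone marks about 1 in 20 groups. For LPL, F1 TN replicate 5 read 9.84 on the log2 scale against 10.92 in the next pig (0.65 of the range). For FASN, LW HS replicate 6 read 15.67 against 15.50 in the next pig (0.71 of the range).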

How the results depend on the processing

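The number of member probes that passed was 0 by temperature and 0 for the interaction under every alternative run. By breed it lay between 24 and 29, against 27, and between 27 and 28 with each pig left out in turn. Over all probes, the 413 calls by temperature became 899 with slide as a fixed block and 820 as a random block, 34 to 341 with a slide left out and 229 to 819 with a pig left out. The 4821 by breed fell to 2673 without slide 2 and to 2026 without slide 3. LW minus CR stayed past the threshold in all these alternatives for ADIPOQ (-1.81 to -1.29), FABP4 (-1.48 to -1.12), PLIN1 (-1.08 to -0.80) and LPL (0.71 to 1.05). The probes that varied with ADIPOQ numbered 30 with the second ADIPOQ probe, 30 with slide as a block, 25 without the 2 pigs of most extreme level and 14, all among the original 31, without F1 HS replicate 4 and CR TN replicate 2, an alternative chosen after seeing the data, as were the breed values within slides.

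Without CR HS replicate 6, LW minus CR moved from -0.11 to -0.17 for SCD, which did not pass. Over the pigs left out in turn it ran from -0.1689 to -0.0036. Of the list genes, 13 of 15 calls between LW and CR and 2 of 3 between F1 and CR were kept, and those lost were CIDEC between LW and CR and FADS2 in both comparisons. Calls between F1 and a parent were less stable, except that of ADIPOQ between F1 and LW, which was kept in all these alternatives (0.97 to 1.48). FABP4 between F1 and LW lost its call without slide 4 (0.75, q = 0.080), and PLIN1 without slide 1, 2 or 4 (0.50, 0.44 and 0.52). PLIN1 between F1 and CR passed without slide 2 (-0.53, q = 0.033). FASN between LW and CR passed with slide as a fixed block (-0.28, q = 0.040), as the mean over its probes (-0.43, q = 0.0088, adjusted over 8922 genes) and without slide 5 (-0.39, q = 0.018).

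Outside the values within single slides, the brightest probes changed sign in differences that passed no test. For HS minus TN they were PLIN1 without slide 3 (0.019), PPARG with the processed signal (0.0028), as the mean over probes (0.0349), without slide 1 (0.032) and over the pigs left out in turn (-0.0358 to 0.0233), LPL as the mean over probes (-0.0485), without slide 1, 2 or 5 (-0.0421, -0.0167 and -0.0595) and over the pigs left out in turn (-0.0396 to 0.0797), and FASN as the mean over probes (0.0064) and without slide 5 (0.0030). For LW minus CR they were LEP (-0.04) and PPARG (0.0307) without slide 4. For F1 minus LW they were PPARG without slide 1 or 3 (0.0239 and 0.0869) and over the pigs left out in turn (-0.0699 to 0.0201), and SCD without slide 1 or 5 (0.0019 and 0.0278) and over the pigs left out in turn (-0.1263 to 0.0064). For F1 minus CR it was LIPE without slide 2 (-0.0426). The cause was not tested. Within single slides, F1 minus LW turned to -0.02 on slide 3 for ADIPOQ and for FABP4, which had passed, and F1 minus CR, which had not, turned to 0.67 for ADIPOQ, 0.27 for FABP4 and 0.30 for PLIN1 on slide 2. On slide 3, F1 minus CR was -1.68 for ADIPOQ, -1.42 for FABP4 and -1.13 for PLIN1. HS minus TN moved to -0.76 on slide 3 and 0.19 on slide 5 for ADIPOQ, 0.08 on slide 5 for FABP4, -0.17 for LEP and -0.50 for PLIN2 on slide 4 and -0.36 for FASN on slide 5. LW minus CR of FASN turned to 0.11 on slide 5. Of the values within slides for differences that had not passed, 13 of 40 for HS minus TN, 10 of 24 for LW minus CR, 11 of 36 for F1 minus CR and 10 of 28 for F1 minus LW had the opposite sign. No paired analysis was possible because the labels tie no pig to a litter, pen or slaughter day and give no replicate numbers of their own.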

Other observations

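F1 pigs were also set against the mean of both parent breeds, a contrast chosen after seeing the data. It passed for 0 of the 55 member probes by limma, with a lowest q of 0.31, and for 188 of all 45348 probes. At an unadjusted p under 0.05 it gave 7 member probes and 5057 of all probes. ADIPOQ was 0.43 above the mean of the parents (95% interval 0.05 to 0.81, q = 0.37), FABP4 0.30 (q = 0.48), LPL 0.22 (q = 0.62) and PLIN1 0.12 (q = 0.80). PLIN2 was -0.18 from it (q = 0.41).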
